A study of Mus musculus with 454 samples.

Results

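This account describes a type of vagal sensory neuron marked by Efcab6 and Trpa1 in the mouse nodose ganglion, the ganglion that holds the cell bodies of most vagal afferents. Its members were the 65 barcodes, of 1108 in a filtered droplet matrix, with the highest mean of log2(CPM + 1) over the 5 genes Efcab6, Gpc3, Mgarp, Depdc7 and Fam19a4, where CPM is the UMIs (unique molecular identifiers) of a gene in a cell, scaled to 1000000 UMIs of that cell. They were set beside the 1001 other barcodes with at least 500 CPM of Snap25, a synaptic gene of neurons, and the remaining 42 barcodes were left aside. The droplet data were 1 library (10x Genomics) of wild type C57BL/6 mice aged 6 weeks, pooled in a way the sources used here do not describe. All other samples were single cells of nodose ganglia of wild type C57BL/6 mice aged 8 to 12 weeks, each made into its own Smart-seq2 library and called picked cells here. Header lines written by the authors give each picked cell a mouse and a code, GastG, GastP, IntP, IntM, IntD, IntL, Port or na, which the sources used here do not expand. No group received a treatment that the labels name, and all ganglia were dissociated with enzymes.

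Trpa1 is a cation channel of sensory nerve endings that opens to reactive irritants such as mustard oil, and in the vagus it is known from airway and gut afferents that signal noxious chemicals. Trpv1, the capsaicin receptor, and the serotonin-gated channel built of Htr3a and Htr3b subunits are known from many of the same fibres. Efcab6 encodes a protein with calcium-binding EF hands. Gpc3 is a glypican, a heparan sulfate proteoglycan held at the cell surface, Mgarp is a mitochondrial protein, and Fam19a4 encodes the secreted chemokine-like protein TAFA4. Depdc7 encodes a protein with a DEP domain.

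The members were neurons of the nodose kind by most of their markers. Snap25 reached the minimum of 500 CPM in all 65. Of 6 neuron markers, 0 were 2-fold or more higher and 1 was lower. Rbfox3 had a median per cell of 21.7 CPM in members and 59.6 CPM in other neurons, and 14 members had none. Of the nodose markers, 1 was 2-fold or more higher in members and 0 were lower. Htr3a was at 1433 CPM in members and 453.2 CPM in other neurons, the T-box factor Tbx3 at 226.2 against 138.5 CPM, Hoxb5 at 639 against 646 CPM and the ATP-gated channel P2rx2 at 239.3 against 290.9 CPM. Of the jugular markers, which mark vagal neurons derived from neural crest, 5 of 6 measured were 2-fold or more lower, and the defining gene Prdm12 had 1 UMI in the 65 members. Runx1, also in that list, had a median per cell of 35.97 CPM in members and 25.6 CPM in other neurons. Satellite glial markers, from the cells that wrap sensory neurons, summed to 581 CPM in members and 1436 CPM in other neurons. Of 5 endothelial markers measured, 1 was 2-fold or more higher and 1 lower. Among them Kdr had a median per cell of 24.6 CPM in members and 0 CPM in other neurons. The 1 immune marker measured was at 5.04 against 2.07 CPM (2.43-fold). Members held more UMIs, with a median of 90642 (range 38752 to 157615) against 55102 (13505 to 169263), and 59 of the 65 lay above the median of other neurons. Doublets were not called.

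The rule chose the members on their own values, so the levels of its genes are a description. The score ran from 6.08 through a median of 4.57 to 3.85 at the last member, and the first barcode outside stood at 3.83. The median over other neurons was 0.863. All 5 rule genes had a UMI in 15 members, 4 of them in 42 and 3 in 8, while 13 other neurons held 4 and none of them held 5. Efcab6 had the largest ratio of the 5, with 558 CPM in members against 58.2 CPM in other neurons (9.58-fold). Gpc3 stood at 44.9 against 8.64 CPM, Mgarp at 14.96 against 1.98, Depdc7 at 16.1 against 2.50 and Fam19a4 at 23.04 against 4.05. The edge of the group was gradual: the last 10 members held 411.8 CPM of Efcab6 and the next 10 barcodes 351.8 CPM, with Mgarp at 7.54 CPM inside and 0 CPM outside. Trpa1 did not fall at that edge, with 451.3 CPM in the last 10 members and 524 CPM in the next 10.

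Membership depended on single rule genes and on depth. Leaving each rule gene out of the score in turn kept 51 to 54 of the 65 members. In those lists the gene left out was 6.58-fold higher for Efcab6, 2.83-fold for Gpc3, 4.85-fold for Mgarp, 4.15-fold for Depdc7 and 4.16-fold for Fam19a4. The lists share most of their cells, and the members were chosen with earlier results of these data known. These ratios are therefore a description too. When every barcode was thinned to 10000 UMIs before scoring, 38 of the 65 were chosen again, and the median depth of that list was still 81300 UMIs.

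Trpa1, which the rule did not use, was high in nearly every member. Per cell it ran from 12.4 through a median of 536 to 1260 CPM in members, and in other neurons from 0 through a median of 0 to 2517 CPM. The groups overlapped at both ends: 3 members were under 100 CPM, and 42 other neurons were at or above the members' median. Over summed UMIs Trpa1 stood at 512 CPM (494 to 531 as the exact Poisson 95% interval) in members and 85.8 CPM in other neurons, a ratio of 5.97 (5.70 to 6.24). There was 1 droplet library, so these intervals cover counting error only and no droplet difference was tested. A Trpa1 UMI was present in 100% of members and 41.6% of other neurons, and in 95.4% and 19.9% once each cell was thinned to 10000 UMIs. Barcodes under the Snap25 minimum, at a median of 15994.5 UMIs, held one in 14.3% of cases. Across the 65 members the level of Trpa1 did not follow that of Efcab6, with a Pearson correlation of 0.11 on the log2 scale, nor did it rise with UMIs (-0.21); cells of 1 library share its free RNA, and the values are descriptive. Members held 36.7% of all neuronal Trpa1 UMIs and 48.2% of those of Efcab6, on 8.85% of the UMIs.

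**Figure D1:**
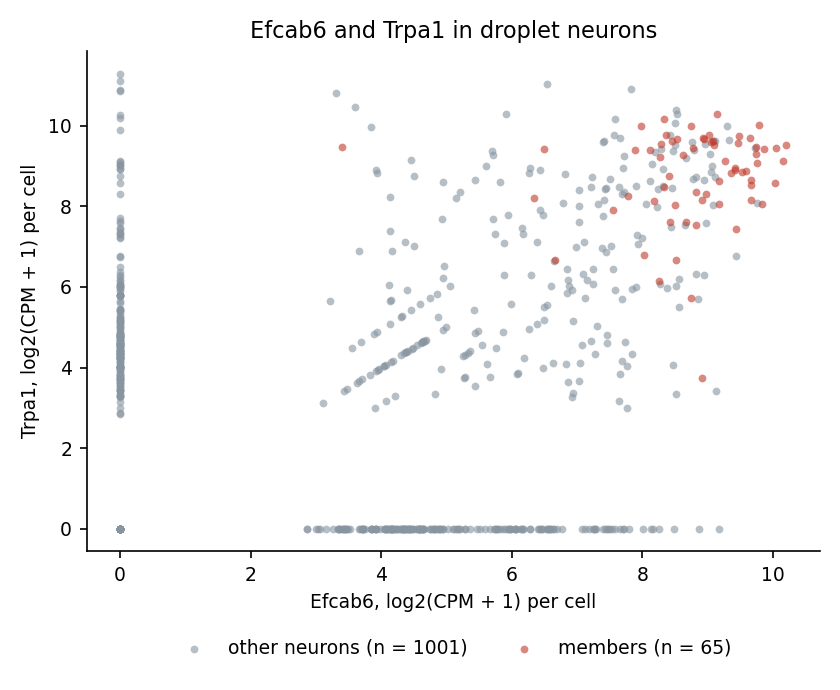
Each point is a neuron of the droplet library, placed by its log2(CPM + 1) of Efcab6 (x axis) and Trpa1 (y axis), with the 65 members in red and the 1001 other neurons in grey. Members gather at the upper right, and grey points with high Trpa1 lie both among them and at 0 for Efcab6.

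High Trpa1 was shared with other neurons, and the 65 neurons with the highest Trpa1 comprised 29 members and 36 others. To see where those others sat, the neurons were grouped into 27 Leiden clusters with the rule genes and Trpa1 left out of the clustering genes. One cluster, number 1, held 48 of the 65 members (73.8%), and members made up 70.6% of its 68 cells. The remaining members lay in clusters 3 (8 members), 8 (6), 5 (2) and 11 (1). Trpa1 in cluster 1 was at 477 CPM (460 to 494). With members left out, clusters 3, 8 and 4 followed at 323.7 (305.02 to 343.3), 321.99 (299.7 to 345.5) and 296.7 (278.4 to 315.97) CPM, and the counting intervals of these 3 overlapped. Cluster 5 stood at 191.7 CPM, cluster 16 at 146.8 CPM (128.5 to 167.1) and cluster 22, whose leading genes include Prdm12 and Calca, at 140.3 CPM (122.5 to 160.02). The other clusters were at 37.5 CPM or lower. Efcab6 stood at 490 CPM in cluster 1, 284.6 in cluster 3, 167.6 in cluster 8 and 107.2 in cluster 4, members included, and at 3.18 CPM in cluster 16 and 4.42 CPM in cluster 22.

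**Figure D2:**
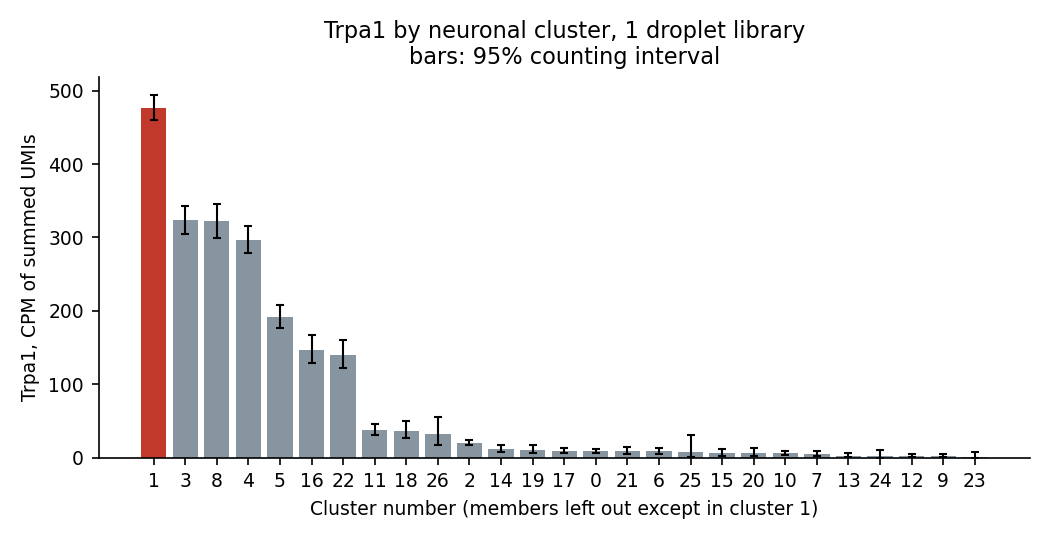
Bars give the Trpa1 level (CPM of summed UMIs, axis from 0) of each of the 27 neuronal clusters in falling order, and error bars the exact Poisson 95% interval. Cluster 1, in red, with all its cells, stands at 477 CPM, and 6 further clusters stand between 140.3 and 323.7 CPM.

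Members within and outside cluster 1 differed more in some genes than in Trpa1 and less in others. The 48 members within it and the 17 outside it held 495 and 568.1 CPM of Trpa1. Htr3a was at 1613 CPM within and 831 CPM outside, and Calca, which encodes the peptide CGRP, was at 17.5 CPM within and 140.4 CPM outside. The 20 neurons of cluster 1 that were not members held 433.96 CPM of Trpa1, against 495 CPM in the 48 members of the cluster. They were lower in Efcab6 (228.8 against 601 CPM), Mgarp (5.64 against 14.4 CPM) and Lpar3 (11.8 against 33.2 CPM), and their median score was 3.42.

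The 3 clusters whose summed profile was most like that of cluster 1 differed from the members each in its own way. Cluster 17, with Mfap5 and Dbh among its leading genes, had a profile correlation of 0.66 across genes and a like level of Htr3a (1406 CPM against 1433 in members), but Trpa1 at 9.93 CPM (6.79 to 14.02) and Lpar3 at 0.621 CPM against 34.8. Cluster 3, led by Camkv and Npas1 (0.57), had Trpa1 at 323.7 CPM but Htr3a at 52.7 CPM and Vip at 32.1 against 255.2 CPM. Cluster 8, led by Nos1 and Lox (0.54), had Htr3a at 855 CPM and Vip at 273.4 CPM (252.96 to 295.1), beside Nos1 at 1017 CPM against 266.8 CPM in members and Trpv1 at 439.8 against 190.2 CPM. Neuronal nitric oxide synthase, the product of Nos1, makes the gas transmitter nitric oxide. Members were left out of these clusters for the gene levels, but not for the profile correlations.

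Over all 13268 genes with 50 or more UMIs, 1.61% were at 2-fold or higher in members and 15.1% (1997 genes) at 0.5-fold or lower, with a median ratio of 0.817. Counts for gene lists above and below are read beside these shares.

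Among genes outside the lists, the leading ones covered several cell functions. Ceacam10, a secreted relative of cell adhesion molecules, led with 64.6 CPM in members and 12.7 CPM in other neurons, a ratio of 5.08 (4.48 to 5.74). Its UMIs were uneven, since 26 of the 65 members had none and the highest held 545 CPM. Genes of mitochondrial proteins among the 20 leading ones were Cox7a1, a subunit of cytochrome c oxidase, at 4.06-fold (3.81 to 4.31) and Tspo, the translocator protein of the outer membrane, at 3.61-fold (3.39 to 3.85). Secreted products were represented by the EGF receptor ligand betacellulin (Btc, 3.84-fold), secretin (Sct, 3.20-fold, with 60 UMIs) and secretogranin 2 (Scg2, 3.06-fold). Terf1, a telomere-binding protein, was at 3.75-fold and had a UMI in all 65 members, from 61.9 through a median of 194.7 to 430.1 CPM. The mitotic checkpoint gene Bub3 stood at 3.96-fold, and 30 members held 1000 CPM or more while the lower quartile was 110 CPM. Cluster 17, the most similar one, held more of it (946 against 787 CPM in members) and had Sct at 14.3 (10.5 to 19.05) against 10.1 CPM (7.70 to 12.99), and both genes are among its own leading ones. The kinase Stk32a (4.34-fold), the C2-domain protein Mctp1 (3.52-fold), the inhibitor of protein kinase A Pkib (3.12-fold), the fatty acid enzyme Hacd4 (4.41-fold) and the axon guidance receptor Robo1 (3.06-fold) were further examples. The rest of the 20, Cpxm2, Gsta4, Bik, Fkbp11, Sez6l, Nell1 and Milr1, lay between 3.09 and 4.20-fold.

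**Figure D3:**
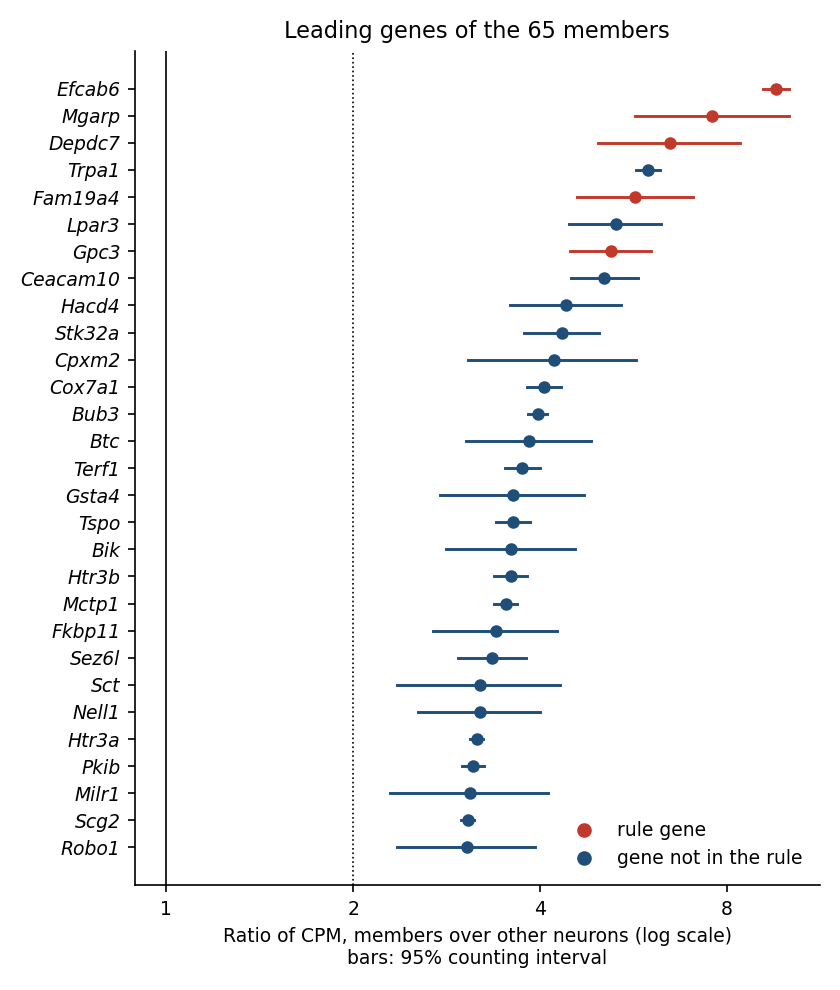
Points give the ratio of CPM in members over other neurons (log axis) for the 5 rule genes in red and for Trpa1, Lpar3, Htr3a, Htr3b and the 20 leading genes outside the lists in blue, with 95% counting intervals. The solid line marks a ratio of 1 and the dotted line 2, and all points lie above 3.

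Several of the leading genes are chromosome neighbours, a feature picked out after their values were seen (mm10 coordinates from GENCODE vM21). On chromosome 15, Bik (83526862 to 83544634, plus strand) and Tspo (83563592 to 83574203, plus strand) lie 18957 bases apart, with Mcat between them at 0.956-fold. Efcab6 (83866712 to 84065379, minus strand) begins 292508 bases beyond Tspo. Of the 3 measured protein-coding genes between these, Mpped1 was at 2.20-fold, Ttll12 at 0.877-fold and Scube1 at 0.283-fold. On chromosome 1, Trpa1 (14872648 to 14918862, minus strand) and Terf1 (15805646 to 15844052, plus strand) flank Kcnb2, a potassium channel gene at 1.07-fold (1.02 to 1.11). Htr3a (48899213 to 48911099) and Htr3b (48935008 to 48964990), both on the minus strand of chromosome 9, are adjacent.

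Among ion channels, Trpa1 was the only TRP gene of 11 measured at 2-fold or higher, and Trpc4 stood at 1.86-fold (1.57 to 2.20) and Trpv1 at 1.38-fold (1.30 to 1.47). The stretch-gated channel Piezo2 had 4 UMIs in the 65 members (0.673 CPM) against 45.7 CPM, and the sodium channel Scn1a 4 UMIs against 30.7 CPM. Scn10a, the sodium channel Nav1.8 of unmyelinated fibres, was at 137.04 CPM in members and 146.9 CPM in other neurons (0.933, 0.867 to 1.00). Of 12 mechanosensation genes, 0 were 2-fold higher and 5 lower; of 15 sodium and HCN channel genes 0 and 6; of 24 potassium channel genes 0 and 12; of 13 calcium channel genes 0 and 2, with Cacna2d2 at 1.88-fold.

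Among receptors, serotonin-gated channel subunits stood out with Htr3b at 234.7 against 65.4 CPM (3.59-fold, 3.38 to 3.82) and Htr3a at 3.16-fold (3.09 to 3.24). Per cell Htr3a ran from 12.6 through a median of 1610 to 2505 CPM, and 52 of the 65 members held 1000 CPM or more. Both were the only ones at 2-fold or higher among 14 serotonin and nicotinic receptor genes, of which 7 were lower. Lysophosphatidic acid and sphingosine 1-phosphate receptors were the higher ones among 24 receptors of inflammatory mediators, with Lpar3 at 34.8 against 6.58 CPM (5.29-fold, 4.45 to 6.27) and S1pr3 at 417.8 against 208.8 CPM (2.00-fold, 1.92 to 2.09). In that list 10 genes were lower, such as the prostaglandin receptors Ptger3 (1 UMI) and Ptgfr (2 UMIs). Receptors of gut hormones and metabolites gave 2 of 16 at 2-fold or higher and 8 lower. The somatostatin receptor Sstr2 stood at 6.05 against 2.12 CPM (2.85-fold, 1.91 to 4.15). Mc4r, the melanocortin receptor, rested on 10 UMIs and its interval held 1 (0.987 to 4.39). Gpr65, the proton-sensing receptor, was at 1.35 CPM in members and 57.9 CPM in other neurons (0.0232, 0.0100 to 0.0458). Npy2r, the receptor for peptide YY, was at 93.5 against 70.4 CPM (1.33-fold, 1.21 to 1.45). Of 11 purinergic receptor genes 0 were higher and 6 lower, with P2ry1 at 0.0638-fold.

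Peptide genes were mostly low, with 14 of 18 at 0.5-fold or lower, a median ratio of 0.0744 and none at 2-fold or higher. Vip, which encodes vasoactive intestinal peptide, was the highest at 255.2 against 128.8 CPM (1.98-fold, 1.87 to 2.09). It was uneven among members, from 0 in 14 of them through a median of 48.2 to 1375 CPM, and 29 members held 100 CPM or more. Calca showed 45.7 against 170 CPM, with a median of 12.0 CPM per member and 7 members at 100 CPM or more. Genes listed as marks of other vagal neuron types were lower in 18 of 23 cases (median ratio 0.0870). That list was chosen with earlier results of these data known, so the count is a description. Transcription factors gave 0 of 32 higher and 14 lower, with Tbx3 at 1.63-fold and Meis2 without a UMI in members, which allows 3 UMIs or 0.504 CPM, at least 16.5-fold lower than in other neurons. Of the 10 lowest genes outside the lists, Sel1l3 had no UMI in members and was at least 26.96-fold lower than its 13.6 CPM in other neurons, and Ly6h stood at 1.01 against 52.5 CPM.

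The picked cells took no part in the choice of members, so the type was looked for there anew. Among picked cells with at least 2000 genes, 37 (8.24%), from 24 of 34 mice, had 10 or more reads of at least 4 of the 5 rule genes, and they are called type cells. Their median depth was 1790760 reads against 1614500 in the other cells, and their median number of genes 11422 against 11381. Trpa1 reached 10 reads in 31 of the 37 (83.8%) and in 18.4% of the other cells. By the number of rule genes a cell held, from 0 to 5, that share was 11.2%, 12.1%, 18%, 63.4%, 85.2% and 80%, with median depths of 1551370, 1554130, 1753990, 1562730, 1582770 and 2008990 reads. Depth was thus lowest at 0 and 1 genes and highest at 5, and its part in these shares was not tested. Trpa1 was again not restricted to the type, since type cells were 28.97% of the cells with it.

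Type cells were compared with the other cells of the same mouse in 24 mice, as mouse means of log2(CPM + 1), with limma and the mouse as a block. Over 12665 genes other than the rule genes, 1121 (8.85%) were higher and 877 (6.92%) lower in type cells at a Benjamini-Hochberg adjusted p under 0.05. EdgeR's quasi-likelihood test on summed reads gave 522 (4.12%) higher and 1890 (14.9%) lower. Labels do not say how the cells were chosen for sequencing. Only 8 of the 24 mice had at least 2 type cells, so most type-cell values were those of a single cell. The p-values therefore mix the spread between cells with the spread between these mice.

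Satellite glial RNA moved with the type cells in this set. The 8 glial markers summed to a median of 875 CPM (range 0.639 to 4563) in type cells and 50.1 CPM (0 to 11500) in other cells, and 5 of the 8 were higher by limma and 0 by edgeR, among them Apoe (log2 difference 1.96 ± 0.62 SE). In the droplet library the sum of the same markers was lower in members (581 against 1436 CPM), and 3 of the 8 were 2-fold or more lower. The median cell did not differ in Apoe, at 259.9 CPM in members and 259.03 CPM in other neurons. Its upper quartile was 542.2 CPM in members and 1282.8 CPM in other neurons. The comparison was therefore repeated with cells at 500 CPM or more of these markers left out of both classes, an alternative chosen after seeing the data. It left 18 type cells from 14 mice and gave 636 higher and 547 lower genes. Of the higher ones 567 were also called with all cells. None of the 6 glial markers it tested was called. Cells were left out by the sum of these same markers, so that count cannot serve as a check on glial RNA.

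Trpa1 had the largest difference of the genes called by limma, rule genes left out. Its mouse means in type cells ran from 0 through a median of 8.17 to 11.04 on the log2(CPM + 1) scale, and in other cells from 0 through 1.18 to 3.16. In 22 of 24 mice the type cells lay above the highest of the other-cell means, and in the other two they were at 0. The log2 difference was 5.96 ± 0.55 (SE, n = 24 mice, limma adjusted p 2.9e-09), and 5.92 ± 0.72 with the cells of high glial RNA left out. By code, 4 of 4 type cells of Gast mice, 16 of 17 of Int mice, 8 of 12 of Port mice and 3 of 4 with the code na held Trpa1. A difference between codes in that share was not tested.

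The 5 highest called genes also held Rab3c, Kcnk3, Trpv1 and Npy2r. Rab3c, a GTPase of synaptic vesicles, was higher by 4.58 ± 0.30 on the log2 scale, and its type-cell means (8.15 to 11.05) lay above every other-cell mean (3.05 to 8.08). Kcnk3, the acid- and oxygen-sensitive background potassium channel TASK-1, differed by 4.28 ± 0.34, and type cells exceeded the highest other-cell mean in 22 of 24 mice. Trpv1 differed by 3.97 ± 0.34, with medians of 8.96 in type cells and 5.05 in other cells and a higher value in 24 of 24 mice. Npy2r differed by 3.71 ± 0.49 (limma adjusted p 1.9e-06), while edgeR gave 1.24 for it with an adjusted p of 0.11. In the droplet library the same genes stood at 1.93-fold for Rab3c, 1.23-fold for Kcnk3, 1.38-fold for Trpv1 and 1.33-fold for Npy2r. The cells they are compared with differ between the sets, as do the protocol and the scale. Npy2r and Trpv1 were higher in droplet clusters 3 and 8, members left out, than in members, and lower in cluster 17. Npy2r stood at 186.2 CPM in cluster 3, 190.9 in cluster 8 and 5.28 in cluster 17, against 93.5 CPM in members. Trpv1 stood at 439.8 CPM in cluster 8 and 39.7 in cluster 17, against 190.2 CPM in members. Its 95% counting interval in cluster 3 was 232.7 to 266.2 CPM.

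**Figure D4:**
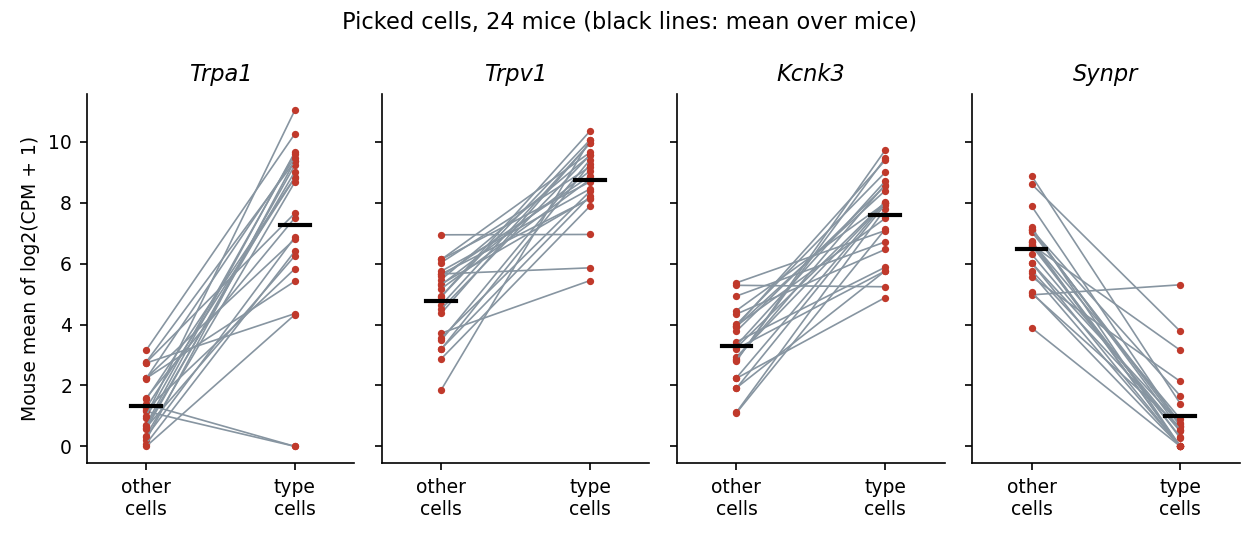
Each line joins the mean log2(CPM + 1) of other cells and of type cells of 1 mouse (24 mice), for Trpa1, Trpv1, Kcnk3 and Synpr, and black lines give the mean over mice. Trpa1 is higher in type cells of 22 mice and lower in 2, while Synpr falls in 23.

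The 5 lowest called genes were Synpr, Slc10a4, Mcam, Alcam and Plxna4. Synpr, which encodes the synaptic vesicle protein synaptoporin, fell by 5.48 on the log2 scale (limma), with type-cell means from 0 through 0.59 to 5.31 and other-cell means from 3.90 through 6.64 to 8.89. Its droplet ratio was 0.0854 (0.0670 to 0.107). Slc10a4, a transporter of synaptic vesicles, fell by 3.53, the adhesion molecules Mcam and Alcam by 3.44 and 3.43, and the semaphorin co-receptor Plxna4 by 3.42, with droplet ratios of 0.140, 0.0742, 0.155 and 0.0514.

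Most leading droplet genes were also higher in picked type cells. Of the 20 leading genes outside the lists, 18 were tested and 16 were higher by limma, 0 lower, against 8.85% of all genes higher. With the cells of high glial RNA left out the count was also 16 of 18, but Ceacam10 (1.76, limma adjusted p 0.128) was no longer among them and Bub3 (1.07, 0.0056) was. Terf1 showed the clearest separation of these, higher in 24 of 24 mice by 3.26 ± 0.21, followed by Pkib (2.96 ± 0.33), Mctp1 (2.72 ± 0.37) and Cpxm2 (2.53 ± 0.48). Tspo differed by 2.27 ± 0.26, Stk32a by 2.19 ± 0.26, Cox7a1 by 1.61 ± 0.19, Bik by 1.48 ± 0.24 and Ceacam10 by 2.08 ± 0.50 (edgeR 0.91, adjusted p 0.42). Bub3 (0.70, limma adjusted p 0.063) and Fkbp11 (0.34, 0.45) did not pass. Hacd4 and Sct did not enter the test. Of the 10 lowest genes all were tested and 7 were lower, led by Pcdh11x, an adhesion molecule (fell by 2.23), and Sel1l3 (fell by 1.54). With the cells of high glial RNA left out 3 of the 10 passed, Pcdh11x, Sel1l3 and Tmie.

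Of the genes 2-fold or higher in droplet members, rule genes left out, 160 were tested in picked cells. Of these 65.6% were higher and 0 lower by limma, and 66 higher and 1 lower by edgeR. Of the 1997 lower genes 1522 were tested, with 38 (2.50%) higher and 26.4% lower. Over all 11721 genes tested in both sets limma called 9.05% higher and 6.94% lower. EdgeR called 502 of them higher and 1657 lower. Read the other way, of 1061 genes higher in picked type cells and measured in droplets, 9.90% were 2-fold or higher in members. Another 38 (3.58%) were 0.5-fold or lower, and the median droplet ratio was 1.12. Of 814 genes lower in picked type cells, 0 were 2-fold or higher and 49.4% were 0.5-fold or lower. Over all measured droplet genes the shares were 1.61% and 15.1%.

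The same gene lists were then counted in picked cells by limma. EdgeR gave fewer higher and more lower genes in most of them, as over all genes: 0 higher and 12 lower for potassium channels, 2 and 8 for transcription factors, 0 and 6 for mechanosensation, 0 and 10 for neuropeptides, 1 and 9 for gut hormone and metabolite receptors, 1 and 7 for serotonin and nicotinic receptors, 1 and 5 for purinergic receptors, 1 and 7 for sodium and HCN channels, 1 and 3 for calcium channels and 0 and 11 for genes of other vagal types. It gave 3 and 2 for TRP channels, 4 and 5 for receptors of inflammatory mediators and 2 and 0 for oxygen response genes. TRP channels had 3 of 12 tested higher and 2 lower; beside Trpa1 and Trpv1, Trpc4, a receptor-operated cation channel, was higher by 3.42 ± 0.26 in 24 of 24 mice. Receptors of inflammatory mediators had 7 of 25 higher and 4 lower. The higher ones included Lpar3 (3.43 ± 0.47, against a droplet ratio of 5.29), S1pr3 (2.58 ± 0.27), the histamine receptor Hrh3 (2.08 ± 0.24) and the thrombin receptor F2r (1.61 ± 0.28). Serotonin and nicotinic receptors had 2 of 13 higher, the nicotinic subunits Chrna3 (1.67 ± 0.29) and Chrnb4 (2.18 ± 0.35; edgeR 0.56, adjusted p 0.17), and 3 lower, with Chrnb3 down (fell by 2.92).

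The serotonin-gated subunits did not pass in picked cells. Htr3a means in type cells ran from 1.15 through a median of 12.8 to 13.3, and in other cells from 4.95 through 8.24 to 12.6 on the log2(CPM + 1) scale. Type cells lay above every other-cell mean in 15 of 24 mice and below every one in 6, and the difference of 0.79 ± 0.73 had a limma adjusted p of 0.54. For Htr3b it was 1.47 ± 0.67 (limma adjusted p 0.15), and 2.48 ± 0.72 (0.034) with the cells of high glial RNA left out.

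Gut hormone and metabolite receptors had 2 of 18 higher, Npy2r and the insulin-like growth factor receptor Igf1r (1.22 ± 0.12), and 2 lower, Gpr65 (fell by 3.38 in 24 of 24 mice) and the fatty acid receptor Ffar3 (fell by 1.24). Sstr2 (0.70, limma adjusted p 0.17) and Mc4r (0.54, 0.29) did not pass. Neuropeptides had 2 of 17 higher and 3 lower. Vip rose by 3.13 ± 0.65 (limma adjusted p 0.00086), with 14 mice above and 3 below all other-cell means, whereas edgeR gave 0.33 with an adjusted p of 0.83. Calcb, a second CGRP gene, rose by 1.69 ± 0.59 with a limma adjusted p of 0.047, a call lost in 23 of 36 alternatives (edgeR 0.52, adjusted p 0.67; without cells of high glial RNA 1.90, limma adjusted p 0.138). Sst (fell by 0.85), Gal (fell by 1.23) and Edn3 (fell by 1.05) were the lower ones.

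Mechanosensation genes had 1 of 12 higher, the background channel Kcnk2 (1.49 ± 0.42; edgeR 0.92, adjusted p 0.15), and 4 lower, led by Piezo1 (fell by 2.27). Purinergic receptors had 2 of 11 higher and 3 lower, with P2ry1 down by 3.07 (log2 difference -3.07). Sodium and HCN channels had 2 of 15 higher and 4 lower, with the sodium channel Scn9a higher by 0.49 ± 0.07. Potassium channels had 4 of 20 higher and 5 lower, calcium channels 3 of 11 and 1, transcription factors 7 of 26 and 5, and oxygen response genes 2 of 7 and 0. Among factors Tbx3 was higher by 1.60 ± 0.21 and Npas1 by 1.99 ± 0.47 (edgeR 1.16, adjusted p 0.15; 1.26 without cells of high glial RNA, limma adjusted p 0.195), and Hif1a, the oxygen-regulated factor, by 1.08 ± 0.19. Of 18 genes of other vagal neuron types 2 were higher and 5 lower. Genes of nerve injury and of dissociation stress, a joint list of 13 tested, had 3 higher (Jun, Socs3 and Hspa1a) and 1 lower by limma. EdgeR gave 0 higher and 3 lower. With the cells of high glial RNA left out (14 mice) none of the 3 passed, at differences of like size: 0.63 for Jun (0.65 with all cells), 1.51 for Socs3 (1.28; limma adjusted p 0.054) and 0.70 for Hspa1a (0.73).

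The share of type cells was then compared between codes, with the mouse as the unit and mice of at least 4 cells. It was 3.13% ± 3.41 (SD, n = 8 mice, 4 type cells) for Gast and 8.62% ± 6.63 (SD, n = 13 mice, 17 type cells) for Int. Gast mice ran from 0 through a median of 2.78 to 7.69% and Int mice from 0 through 6.67 to 17.6%, so the groups overlapped. The Gast mice split by mouse number: mice 7, 8, 9 and 10 were all at 0%. Gast mice 41, 42, 43 and 44 ran from 5.56 to 7.69%, near the Int median. The part of this split in the difference between codes was not tested. The difference of -5.49 percentage points had p = 0.0454 in an exact two-sided permutation test over 203490 splits. This call did not hold when any of the Gast mice 7, 8, 9 and 10 or the Int mice 11, 14, 18, 20, 26 and 34 was left out (10 of 21 mice, exact permutation p up to 0.0756), nor with type cells defined by 3 rule genes (-5.91 points, p = 0.204 in the exact permutation test). Port mice were at 9.14% ± 8.21 (SD, n = 8) and mice with the code na at 8.13% ± 2.92 (SD, n = 4). Among single codes the mean ran from 1.85% in GastP (n = 3) and 3.90% in GastG (n = 5) through 4.61% in IntP (n = 4), 8.26% in IntD (n = 3) and 9.72% in IntL (n = 3) to 13.2% in IntM (n = 3), and these were not tested against each other.

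**Figure D5:**
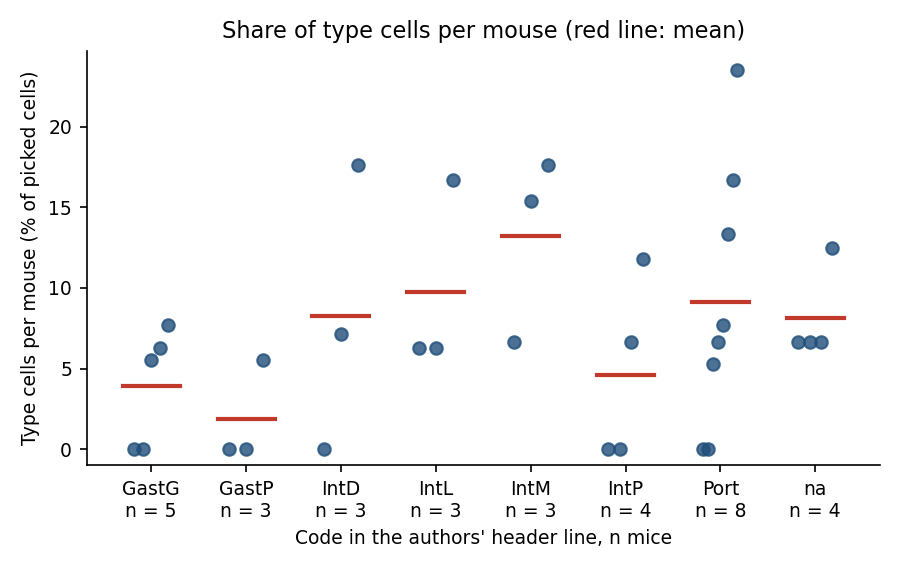
Points give the share of type cells (% of picked cells that passed) in each mouse with at least 4 cells, by the code in the authors' header lines, and red lines the mean. All 8 mice with a Gast code are under 8%, and 5 of the 13 Int mice are above 10%.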

How the data were processed

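The authors deposited UMI counts of 28001 genes as a filtered matrix of 1108 barcodes and a raw one of 737280, made with Cell Ranger 2.0.1 on mm10 per the submitters' processing notes. For picked cells they deposited log2 values of reads for 36920 genes, in which 0 reads stand as a floor of 0.02 reads. Once unlogged, 94.1% of values above the floor were whole to 1 part in 1000. Sources used here give no aligner for them. One column matched no sample's title and was dropped (1 in all), leaving 452 cells, 3 of them with under 2000 genes. Rows of repeated symbols (82) stayed out of tests.

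The members and the 32 gene lists were chosen with earlier results of these data known. Droplet UMIs were summed per group and scaled to CPM. Ratios carry the exact interval of 2 Poisson counts at 95%; in simulated pairs at ratios of 1, 2 and 10 it covered the ratio drawn in 95.9%, 96.25% and 95.3% of draws. Clusters came from scanpy 1.11.5 (2000 variable genes, 30 components, 15 neighbours, leidenalg 0.10.2 at resolution 1.5). A gene entered the picked fit if 5% of cells had 10 reads of it, in limma 3.58.1 with a trend (R 4.3.3), with edgeR 4.0.16 beside it on summed reads. Mice needed 1 type cell and 3 other cells. In simulated mouse values for this comparison over 12670 genes, limma recovered 80.5% of genes changed by 1 and 99% of those changed by 2 on the log2 scale. In simulated counts edgeR recovered 61% and 87%. The limma values were drawn with 1 normal spread per gene for both classes, which values of single type cells need not follow. Differences on the log2(CPM + 1) scale understate those of low genes, and PCR reads are not independent molecules.

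Named genes were the rule genes and Trpa1, the 2 highest and 2 lowest ratios of each list, the 20 highest and 10 lowest outside the lists (200 UMIs, a UMI in 30% of members or 20% of other neurons), and the 5 highest and 5 lowest called differences in picked cells, without gene models, mitochondrial and ribosomal protein genes. Some list members picked by this rule are not reported here. Further list members are named beside a list's count and were chosen after their values were seen.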

Additional observations from a re-analysis of the deposited data

Results flagged for a closer look

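Among the 4 mice with the code na, mouse Retro32 stood apart in its share of type cells, at 12.5% (1 of 8 picked cells) against 6.67% in each of the other 3. Its gap to the next mouse spans the whole range of the group. The share rests on 1 cell. Each of the 4 mice had 1 type cell, and Retro32 had 8 picked cells against 15 in each of the others. The gap is thus one in the number of picked cells. The rule that flags it sets about 1 in 20 groups of continuous values apart by chance, a rate not tested for tied shares.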

How the results depend on the processing

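The droplet counts of genes past 2-fold stayed within 1.5 times of their values under all 11 alternatives. The cluster with most members held 33 to 48 of them under 3 alternatives and 30 of 65, in a cluster of 40 cells, at resolution 2. In picked cells, the shares of genes called higher and lower by limma (8.85% and 6.92%) fell to 2.49% and 1.92% with all 5 rule genes required (8 mice), to 4.14% and 2.61% in mice with 2 type cells (8 mice), to 5.15% and 4.43% with cells of high glial RNA left out (14 mice), and to 1.13% and 0.196% with cells thinned to 500000 reads (5 type cells in 5 mice); each of these fits has fewer mice. EdgeR gave 4.12% and 14.9%, for which the cause was not tested. Without the mouse as a replicate block the shares were 7.65% and 5.99%, and leaving out 1 mouse gave 8.06% to 9.62% and 6.35% to 7.17%.

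The Gast minus Int difference in share was -5.91 points with 3 rule genes, -2.69 with 5, -5.31 by the droplet score and -4.67 with thinned cells and a minimum of 3 reads, with exact permutation p from 0.159 to 0.204, and 1.20 with thinned cells and 10 reads (exact permutation p 0.44). It ran from -6.21 to -4.74 with 1 mouse left out (exact permutation p 0.0227 to 0.0756). It kept its call with only mice of 8 or more cells (-7.63, exact permutation p 0.00411) and without cells of high glial RNA (-8.18, exact permutation p 0.00827). For the losses and the change of sign the cause was not tested.

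Signs changed in the following named genes. With 5 rule genes Cckbr was at 0.26, Fkbp11 at -0.11 and Zmat4 at 0.16. Without cells of high glial RNA Fkbp11 was at -0.035 and Zmat4 at 0.091. With thinned cells and 10 reads Trpc6 was at -0.26 and Ly6h at 0.36, and in edgeR Trpc6 was at -0.86, Htr3a at -0.19 and Fkbp11 at -0.056. For these the cause was not tested. Over 36 alternatives the log2 difference of Trpa1 ran from 3.86 to 6.80 and stayed called in each. The thinned settings and the one on glial RNA were chosen after seeing the data. Depth limits the droplet values of genes with under 10 UMIs in members, and 1 library gives no replicate error.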
